A study of Caenorhabditis elegans with 6 samples.

Results

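The cuticle collagen genes of Caenorhabditis elegans were compared between worms fed bacteria expressing RNAi against the gtr-1 3'UTR and worms fed bacteria carrying an empty vector. They were chosen by name alone: 156 genes named col- with a number and 21 genes named from a body-shape phenotype (11 dpy, 2 rol, 3 sqt and 3 bli genes, lon-3 and ram-2), which makes 177 of the 22407 genes with counts. All worms were of strain AM140, which carries rmIs132 [unc-54p::Q35::YFP], a transgene that drives a YFP-tagged polyglutamine stretch from a body wall muscle myosin promoter, so both groups carried it. The group labelled gtr-1 RNAi (3 libraries) had eaten HT115 bacteria with the gtr-1 3'UTR RNAi construct, and the group labelled EV (3 libraries) HT115 with the empty vector, in the parental generation and again in the generation sampled. Pools of whole worms of generation 2, kept at 20 °C and washed each day to remove progeny, were harvested on day 6 of adulthood and their mRNA was sequenced. Because each library is a pool of whole worms, fewer cells of a type and less RNA per cell cannot be told apart.

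The nematode cuticle is an exoskeleton secreted by the epidermis and rebuilt at each moult. Its collagens are short triple-helical proteins that are hydroxylated, trimmed and cross-linked, and different genes serve different structures: the circumferential furrows, the struts of the adult cuticle, the lateral ridges or the rays of the male tail. Mutants of individual genes are short and fat (dumpy), long, twisted (roller) or blistered, and many col genes are used in a burst at 1 particular moult while others are adult genes.

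The 6 libraries held 33254426 to 41902475 counts each. The targeted gene gave few counts and did not separate the groups: gtr-1 had 20, 24 and 19 counts in the libraries labelled gtr-1 RNAi, against 16, 25 and 20 counts in the EV libraries (log2 fold change -0.01 ± 0.28 (SE), edgeR quasi-likelihood test, adjusted p = 0.986). Groups carry the names of their labels throughout, and directions refer to the labels. Library gtr-1 RNAi 3 stood nearer to the EV libraries than to the other 2 of its group: on the first principal component of all genes, with 72.7% of the variance, the libraries labelled gtr-1 RNAi lay at 41.8, 59.9 and -6.62 and the EV libraries at -19.2, -35.3 and -40.6. Counts of calls are given with and without it. For single genes this was done only in part, and other named genes may also cross edgeR's threshold without it. The design text speaks of 3 sets of worms without naming the set behind a library, so the p-values reflect how far these 6 libraries scatter, which may be technical.

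The collagen genes differed in both directions. The most abundant col genes, which supply most collagen mRNA in these adults, lay higher in the gtr-1 RNAi group. A second set with the furrow collagens, sqt-3, dpy-14 and dpy-17 was lower in value, without a call by edgeR or DESeq2 over all 6 libraries. Without gtr-1 RNAi 3 edgeR called 4 furrow genes, sqt-3, dpy-14 and dpy-17 lower, in a fit that called 15% of all genes lower. Of the 177 genes, 134 had enough counts to be tested. By edgeR's quasi-likelihood test with Benjamini-Hochberg adjustment over 14683 genes, 0 collagen genes passed an adjusted p of 0.05 in either direction, as for all genes (0.0% in each direction), and the smallest adjusted p of a collagen gene was 0.112. Unadjusted, 27 collagen genes higher and 16 lower had an edgeR p under 0.05, which is 20.1% and 11.9% of those tested, beside 12.9% and 15.3% of all genes. DESeq2, run as an alternative, called 25 higher and 6 lower among 99 collagen genes with an adjusted p. Those are 25.3% and 6.06%, against 6.66% and 7.58% of all genes, so the share called lower was near the background. limma-voom called 0 in either direction and, with sample quality weights, 45 higher and 43 lower (16.1% and 21.6% of all genes). Without library gtr-1 RNAi 3, edgeR called 13 higher and 39 lower of 139 tested (8.77% and 15% of all genes). DESeq2's counts of collagen genes also moved with the library left out. They were 2 higher and 0 lower without gtr-1 RNAi 1 (99 and 48 over all genes), 4 and 4 without gtr-1 RNAi 2 (206 and 191 over all genes), and 24 and 42 without gtr-1 RNAi 3 (1555 and 1999 over all genes). Leaving out EV 1, 2 or 3 gave 26, 8 and 7 collagen genes higher and 4, 0 and 0 lower (776, 318 and 189 higher and 693, 224 and 93 lower over all genes).

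The sizes of the differences spread far wider than those of other genes. In value, 73 of the 134 tested collagen genes were higher and 61 lower, against 49.5% and 50.5% of all genes. The median log2 fold change of the 134 tested collagen genes was 0.22 with quartiles at -1.16 and 0.95, where all genes had a median of -0.003 and quartiles at -0.23 and 0.13. The collagen median was 0.01 without gtr-1 RNAi 1, 0.36 without gtr-1 RNAi 2, 0.40 without EV 1 and 0.09 without EV 3. A log2 fold change over 1 was fitted for 29 collagen genes (21.6%, against 1.78% of all genes) and one under -1 for 38 (28.4%, against 5.82% of all genes). The 3 libraries of each group did not overlap for 30 genes that were higher (22.4%, against 16.6% of all genes; 55 without gtr-1 RNAi 2 and 49 without EV 1) and 41 that were lower (30.6%, against 19.6% of all genes).

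**Figure D1:**
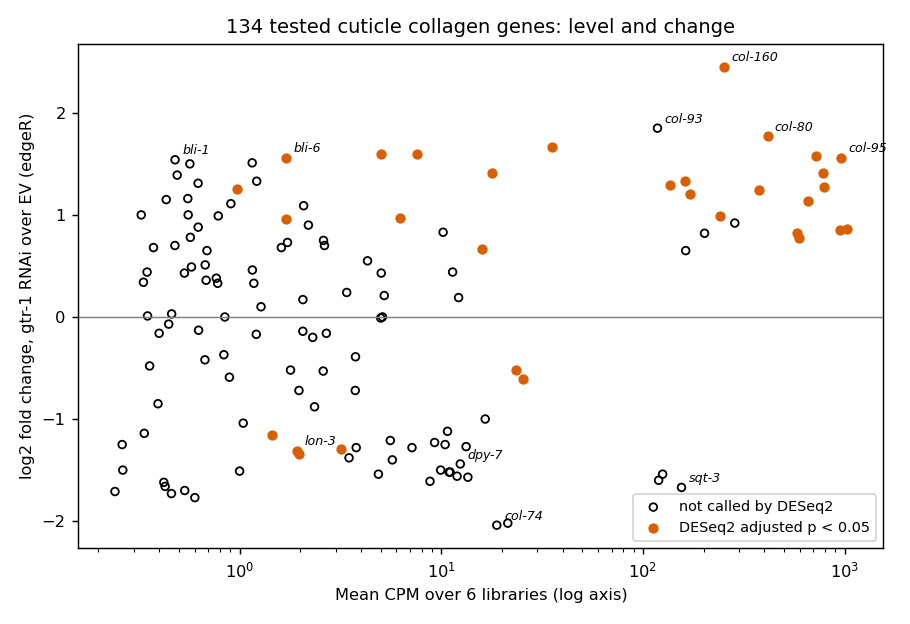
Log2 fold change (gtr-1 RNAi over EV, edgeR) against mean level in CPM (log axis) of the 134 tested collagen genes, with the genes that DESeq2 called at an adjusted p under 0.05 filled. At 50 CPM or more 20 genes lie above 0 and 3 below it, while genes of 1 to 50 CPM lie on both sides.

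The genes were also read by level. Levels are counts scaled to a common library size (CPM) after TMM adjustment. At a mean of 50 CPM or more there were 23 collagen genes, of which 20 were higher, each with no overlap between groups and with log2 fold changes of 0.65 to 2.45, and DESeq2 called 16 of them. Of all 4269 tested genes of that level, 965 were higher without overlap and DESeq2 called 337 higher. The other 3 were sqt-3, dpy-17 and dpy-14. The median of these 23 genes was 1.14, against 0.03 for all genes of that level. Among 67 collagen genes of 1 to 50 CPM, 27 were higher and 40 lower in value, with a median of -0.39 (-0.02 for all genes of that level). Of the 44 below 1 CPM, 26 were higher and 18 lower in value, with a median of 0.35 (-0.17 for all genes of that level).

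As a share of the library, the 177 genes took 1.59%, 1.48% and 1.00% of all counts in the libraries labelled gtr-1 RNAi, against 0.844%, 0.734% and 0.565% in the EV libraries. The groups did not overlap, and gtr-1 RNAi 3 lay next to EV 1. A fixed set was also taken, the 20 collagen genes with the highest mean level per exon length over all libraries. It held 94.9%, 96.6% and 91.0% of collagen counts in the libraries labelled gtr-1 RNAi and 88.6%, 85.0% and 81.0% in the EV libraries. The set left out sqt-3 and dpy-17, which were among the 20 highest in every EV library. It also left out col-93, which was among them in gtr-1 RNAi 1 and 2. These shares therefore do not show how concentrated collagen mRNA was within a library.

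**Figure D2:**
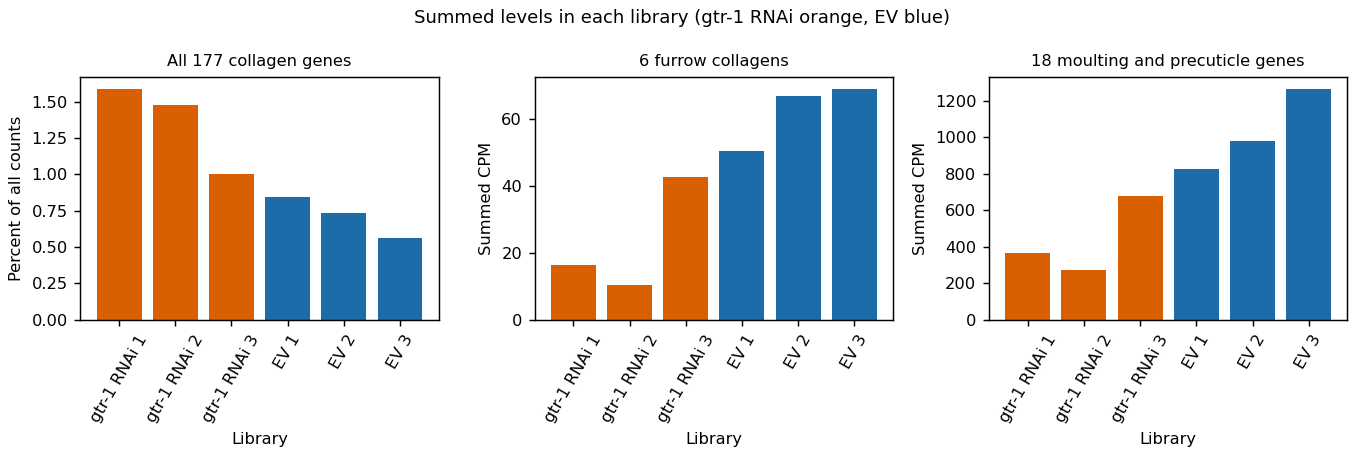
Summed levels in each library: the share of all counts in the 177 collagen genes (percent), and the summed CPM of the 6 furrow collagens and of 18 moulting and precuticle genes. The share is highest in gtr-1 RNAi 1 (1.59%) and lowest in EV 3 (0.565%), and the other sums are lowest in gtr-1 RNAi 2.

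The 6 genes that led by level per length are given in TPM, counts divided by exon length and scaled to a common total. col-122, on chromosome IV from 9563379 to 9564441 (WBcel235, 2 exons), had 2215, 2174 and 1499 TPM in the libraries labelled gtr-1 RNAi, against 1255, 1224 and 895 TPM in the EV libraries. It was the first or second collagen in all 6 libraries. Its log2 fold change was 0.86 ± 0.23 (SE; edgeR adjusted p = 0.118, DESeq2 adjusted p = 0.00732). col-119 had 2364, 1897 and 1227 TPM in the libraries labelled gtr-1 RNAi and 1036, 809 and 526 TPM in EV (1.27 ± 0.37; edgeR adjusted p = 0.128, DESeq2 adjusted p = 0.0128). col-181 had 1718, 1695 and 1226 TPM in the libraries labelled gtr-1 RNAi and 1073, 922 and 681 TPM in EV, with a log2 fold change of 0.85 ± 0.23 (DESeq2 adjusted p = 0.0106). col-140 had 1728, 1431 and 974 TPM in the libraries labelled gtr-1 RNAi and 828, 672 and 458 TPM in EV (1.14 ± 0.33; DESeq2 adjusted p = 0.012). For these 4 genes every library labelled gtr-1 RNAi was above every EV library, and EV 3 was the lowest. Without gtr-1 RNAi 3 edgeR's adjusted p was 0.0279 for col-122 and 0.0717 for col-119, in a fit that called 8.77% of all genes higher.

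The other 2 of the 6 had larger fold changes. col-95, on chromosome III from 11703994 to 11705091, had 2162, 2439.9 and 1189.8 TPM in the libraries labelled gtr-1 RNAi, against 857, 643 and 557 TPM in the EV libraries. Its log2 fold change was 1.56 ± 0.35 (edgeR adjusted p = 0.112, DESeq2 adjusted p = 0.000793). col-143, on chromosome V from 6835635 to 6836704, had 1738, 1836 and 937 TPM in the libraries labelled gtr-1 RNAi and 697, 466 and 411 TPM in EV (1.58 ± 0.37; edgeR adjusted p = 0.112, DESeq2 adjusted p = 0.00125). In both genes gtr-1 RNAi 3 was the lowest of its group and still above EV 1, the highest EV library.

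The largest fold change among collagens of 1 CPM or more was that of col-160, on chromosome V from 13200982 to 13202189 on the minus strand. It had 536, 529 and 211 CPM in the libraries labelled gtr-1 RNAi, against 129, 62.0 and 41.5 CPM in the EV libraries. The log2 fold change was 2.45 ± 0.61 (edgeR adjusted p = 0.118). In TPM it was the 13th, 12th and 14th collagen in the libraries labelled gtr-1 RNAi and the 20th, 22nd and 22nd in EV. Exons of its neighbour col-159 overlap it on the same strand, so counts of the pair are uncertain. col-159 had 14.7, 11.1 and 8.47 CPM in the libraries labelled gtr-1 RNAi and 5.98, 2.86 and 2.45 CPM in EV, with a log2 fold change of 1.60 ± 0.39 (edgeR adjusted p = 0.112, DESeq2 adjusted p = 4.98e-05).

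Further genes that were higher differed in level. col-80 had 767, 782 and 377 CPM in the libraries labelled gtr-1 RNAi and 273, 176 and 115 CPM in EV (log2 fold change 1.77 ± 0.45; DESeq2 adjusted p = 0.00353). col-101 had 1279.6, 1414 and 716 CPM in the libraries labelled gtr-1 RNAi and 548, 392 and 342 CPM in EV (1.41 ± 0.33; DESeq2 adjusted p = 0.00179). col-93 had 277, 163 and 114 CPM in the libraries labelled gtr-1 RNAi and 95.4, 42.2 and 15.96 CPM in EV, and DESeq2 did not call it (1.85 ± 0.74; DESeq2 adjusted p = 0.0785). At lower levels col-179, col-142 and col-94 had log2 fold changes of 1.67 ± 0.48, 1.41 ± 0.32 and 1.60 ± 0.51, with DESeq2 adjusted p of 0.0153, 0.00392 and 0.00144. col-158 differed less but with little spread: it had 21.4, 22.3 and 15.2 CPM in the libraries labelled gtr-1 RNAi and 13.3, 11.7 and 11.9 CPM in EV (0.67 ± 0.15; DESeq2 adjusted p = 0.00114). With each library left out in turn, col-95, col-158 and col-159 were called by DESeq2 in 5 of 6 fits, and no collagen gene was called in all 6. For col-101 edgeR's adjusted p was 0.0242 without gtr-1 RNAi 3, in the fit that called 8.77% of all genes higher.

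**Figure D3:**
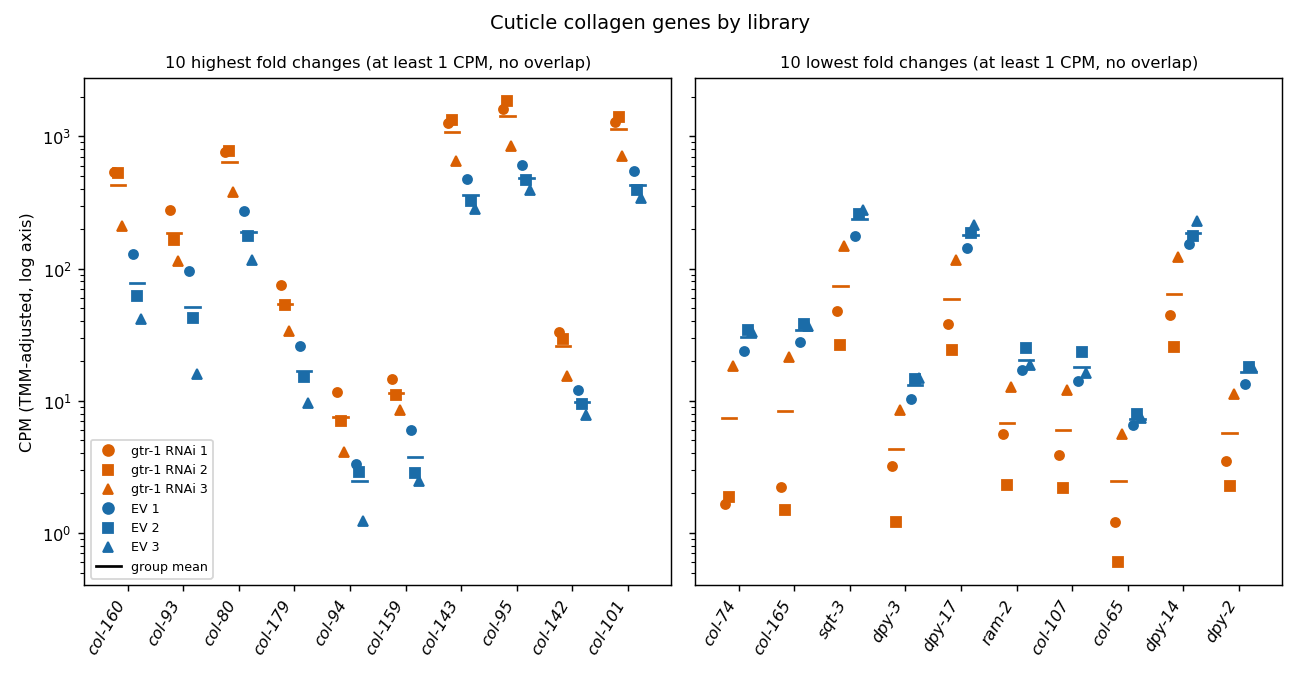
CPM (log axis) in each library of the 10 collagen genes with the highest and the 10 with the lowest log2 fold change among those of at least 1 CPM whose groups do not overlap; bars are group means. On the left gtr-1 RNAi 3 is the lowest of its group, and on the right it is the highest of its group, next to the EV libraries.

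The furrow collagens, which build the circumferential grooves of the cuticle, were lower in value. Of the 6, 5 could be tested and 5 were lower in value, with a median log2 fold change of -1.44. Their summed level was 16.3, 10.3 and 42.8 CPM in the libraries labelled gtr-1 RNAi, against 50.3, 66.8 and 69.1 CPM in the EV libraries. dpy-7, on chromosome X from 7536467 to 7537792, had 4.55, 2.81 and 12.6 CPM in the libraries labelled gtr-1 RNAi and 14.8, 19.4 and 20.3 CPM in EV. Its log2 fold change was -1.44 ± 0.58 (edgeR adjusted p = 0.184, DESeq2 adjusted p = 0.105). In the libraries labelled gtr-1 RNAi, 2 of 3 were far below EV and gtr-1 RNAi 3 was just below EV 1, and dpy-2 (-1.52 ± 0.63), dpy-3 (-1.61 ± 0.69) and dpy-10 (-1.23 ± 0.42) had the same order. dpy-9 differed little (-0.37 ± 0.23), and dpy-8 had at most 11 counts in a library and was not tested. Without gtr-1 RNAi 3 the list's median was -2.31, and edgeR called 4 furrow genes lower in a fit that called 15% of all genes lower (adjusted p of 0.000618 for dpy-2, 0.0176 for dpy-3, 0.0013 for dpy-7 and 0.000446 for dpy-10).

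The same order of libraries held for the only 3 abundant collagens that were lower. sqt-3, an early cuticle collagen gene whose alleles give squat, roller or dumpy worms, had 47.8, 26.3 and 149 CPM in the libraries labelled gtr-1 RNAi, against 176, 257 and 275 CPM in the EV libraries (log2 fold change -1.67 ± 0.70; edgeR adjusted p = 0.201, DESeq2 adjusted p = 0.118). dpy-17, whose product is needed for normal SQT-3 secretion, had 38.3, 24.1 and 116 CPM in the libraries labelled gtr-1 RNAi and 143, 184 and 212 CPM in EV (-1.60 ± 0.64; edgeR adjusted p = 0.187). dpy-14, a collagen of the embryonic and early larval cuticle, had 44.3, 25.7 and 122 CPM in the libraries labelled gtr-1 RNAi and 154, 176 and 229 CPM in EV (-1.54 ± 0.63; edgeR adjusted p = 0.192). In all 3 genes the groups did not overlap. Without gtr-1 RNAi 3 their log2 fold changes were -2.67, -2.53 and -2.41, and edgeR's adjusted p were 0.0307, 0.0183 and 0.0268. A gene on the opposite strand, F23H12.13, overlaps sqt-3, and the strand setting of the counting is not given in the sources used here.

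Other genes named from mutants went both ways in value. The dumpy collagens dpy-4, dpy-5 and dpy-13 were higher in value with log2 fold changes of 0.75 ± 0.50, 0.68 ± 0.71 and 0.90 ± 0.42 (edgeR adjusted p of 0.362, 0.567 and 0.213), and the direction of dpy-5 turned to -0.01 without gtr-1 RNAi 1. dpy-13 had 4.15, 1.40 and 3.04 CPM in the libraries labelled gtr-1 RNAi and 1.91, 1.67 and 0.992 CPM in EV, so its groups overlapped. Of the strut genes, bli-6 had 4.32, 1.30 and 2.06 CPM in the libraries labelled gtr-1 RNAi and 1.65, 0.658 and 0.263 CPM in EV (1.56 ± 0.72; edgeR adjusted p = 0.214, DESeq2 adjusted p = 0.0492). bli-1 had 1.10, 0.727 and 0.318 CPM in the libraries labelled gtr-1 RNAi and 0.213, 0.253 and 0.263 CPM in EV (1.54 ± 0.49; edgeR adjusted p = 0.119), and bli-2 was too low to test, with 19, 5 and 4 counts in the libraries labelled gtr-1 RNAi and 3, 5 and 3 counts in EV. bli-1 and bli-6 were both higher in value, and the groups of bli-6 overlapped. Without gtr-1 RNAi 3 edgeR's adjusted p was 0.00541 for bli-1 and 0.263 for bli-6, in the fit that called 8.77% of all genes higher. bli-1 had 8 to 39 counts per library, and a gene on the opposite strand, dph-2, overlaps it.

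lon-3, a collagen that sets body length, was the named-mutant gene with the smallest p. It had 0.763, 0.878 and 1.67 CPM in the libraries labelled gtr-1 RNAi, against 2.42, 2.46 and 3.38 CPM in the EV libraries (log2 fold change -1.31 ± 0.32; edgeR adjusted p = 0.112, DESeq2 adjusted p = 0.00647). ram-2, a collagen of male tail ray morphology, had 5.57, 2.31 and 12.6 CPM in the libraries labelled gtr-1 RNAi and 16.97, 25.3 and 18.6 CPM in EV (-1.57 ± 0.62; edgeR adjusted p = 0.179). Neither gene's groups overlapped. Without gtr-1 RNAi 3 edgeR's adjusted p was 0.00177 for lon-3 and 0.0274 for ram-2, in the fit that called 15% of all genes lower. The roller and squat genes rol-6, rol-8, sqt-1 and sqt-2 were below 1.3 CPM in all 6 libraries, with log2 fold changes of 0.44 ± 0.43, 0.49 ± 0.39, 0.03 ± 0.51 and 0.51 ± 0.45 (edgeR adjusted p of 0.526, 0.43, 0.975 and 0.485), and that of sqt-1 turned sign under several settings.

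A list of 5 col genes with a known stage of use held col-2, col-19, col-38, col-49 and col-63. It left out the early collagens sqt-3 and dpy-14, which were lower in value (-1.67 and -1.54). The 4 listed genes that could be tested were higher in value, with a median of 0.82 and no call by edgeR or DESeq2. The median was 0.33 without gtr-1 RNAi 1 and 0.53 without EV 3. col-19, an adult-specific gene on chromosome X from 421707 to 422691, had 263, 171 and 162 CPM in the libraries labelled gtr-1 RNAi, against 151, 142 and 87.1 CPM in the EV libraries (0.65 ± 0.30; edgeR adjusted p = 0.232, DESeq2 adjusted p = 0.165). The groups did not overlap, but gtr-1 RNAi 3 and EV 1 differed little. col-38, col-49 and col-63 had log2 fold changes of 0.43 ± 0.19, 1.15 ± 0.75 and 0.99 ± 0.65, and col-2 was not tested with at most 12 counts. Of 3 genes known as SKN-1-dependent longevity collagens, col-120 and col-13 were higher in value (1.00 ± 0.48 and 1.39 ± 0.63) and col-10 lower (-1.50 ± 0.67). edgeR called none of them. DESeq2 did not call col-10 and gave col-120 and col-13 no adjusted p. limma-voom with sample quality weights called col-10 and col-120 (adjusted p of 0.0046 and 0.0284).

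Among col genes with the lowest fold changes, the first 2 libraries labelled gtr-1 RNAi were far below EV. col-74, on chromosome II from 5830374 to 5832022, had 1.67, 1.88 and 18.5 CPM in the libraries labelled gtr-1 RNAi, against 23.7, 34.1 and 33.3 CPM in the EV libraries. col-165 had 2.23, 1.48 and 21.6 CPM in the libraries labelled gtr-1 RNAi and 28.0, 38.3 and 36.7 CPM in EV. Their log2 fold changes were -2.04 ± 1.03 and -2.02 ± 1.08 (edgeR adjusted p of 0.261 and 0.282), and without gtr-1 RNAi 3 they were -4.09 and -4.22 (adjusted p of 0.000218 and 0.000306). col-65 (-1.54 ± 0.80) and col-107 (-1.56 ± 0.67) had the same shape, with -3.01 and -2.57 without gtr-1 RNAi 3. A gene on the opposite strand, gtap-1, overlaps col-74.

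The 6 genes that DESeq2 called lower were not among the furrow collagens. col-166, on chromosome X from 6280016 to 6280921, had 19.7, 16.3 and 24.7 CPM in the libraries labelled gtr-1 RNAi, against 27.3, 33.9 and 31.6 CPM in the EV libraries (log2 fold change -0.61 ± 0.16; DESeq2 adjusted p = 0.00184). col-76 had 16.98, 17.7 and 23.3 CPM in the libraries labelled gtr-1 RNAi and 24.9, 27.6 and 30.7 CPM in EV (-0.52 ± 0.14; DESeq2 adjusted p = 0.00519). Both had no overlap and an edgeR adjusted p of 0.112. col-113 (-1.16 ± 0.31; DESeq2 adjusted p = 0.0252) completed the calls with lon-3 and 2 genes picked after their values were seen, col-130 (-1.34 ± 0.45; DESeq2 adjusted p = 0.0231) and col-48 (-1.29 ± 0.52; DESeq2 adjusted p = 0.0277). col-174 had 8, 8 and 13 counts in the libraries labelled gtr-1 RNAi and 24, 33 and 34 counts in EV (-1.70 ± 0.32; edgeR adjusted p = 0.112), and DESeq2 gave it no adjusted p.

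**Figure D4:**
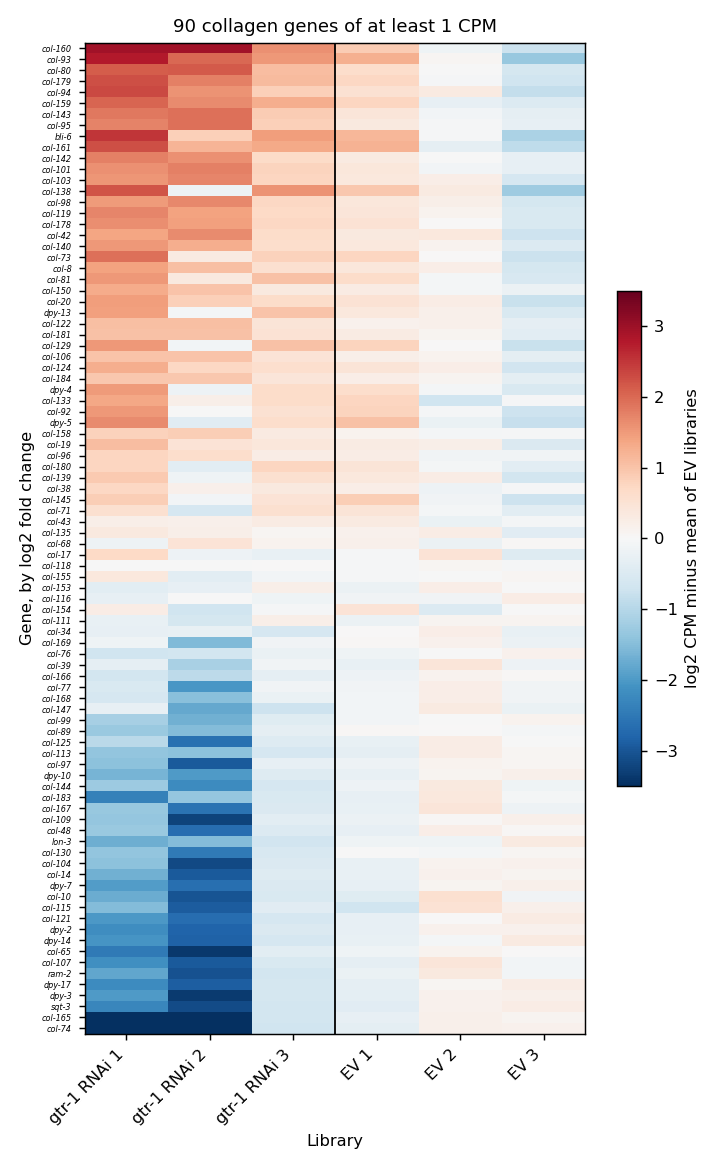
Log2 CPM minus the mean of the EV libraries for the 90 tested collagen genes of at least 1 CPM, ordered by log2 fold change, in each library; the colour scale ends at 3.5 in either direction. In the upper genes the first 2 libraries labelled gtr-1 RNAi are red and gtr-1 RNAi 3 is paler, and in the lower genes gtr-1 RNAi 2 is the darkest blue and gtr-1 RNAi 3 is close to EV.

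The 2 sets placed the libraries differently. For 20 genes of at least 1 CPM with a log2 fold change over 1, gtr-1 RNAi 1, 2 and 3 lay at medians of 1.88, 1.65 and 0.83 log2 units above the EV mean, and EV 1, 2 and 3 at 0.52, 0.00 and -0.62. EV 3 was the lowest library in all 20. For 29 genes of that level with a log2 fold change under -1, the libraries labelled gtr-1 RNAi lay at medians of -1.71, -2.83 and -0.52 and the EV libraries at -0.27, 0.14 and 0.11. gtr-1 RNAi 2 was the lowest library in 26 of the 29 and gtr-1 RNAi 1 in 3. Set between the EV mean (0) and the mean of gtr-1 RNAi 1 and 2 (1), gtr-1 RNAi 3 lay at a median of 0.47 in the 20 higher genes and 0.24 in the 29 lower ones. Without it edgeR called 6 of the 20 and 27 of the 29, in the fit that called 8.77% of all genes higher and 15% lower. These positions describe genes picked by their fold change and were not tested.

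Genes within 10 kb of each other formed 25 groups with 59 members, and in 19 groups at least 2 genes could be tested. All tested genes were higher in value in 7 groups, such as col-92, col-93 and col-94 on chromosome III from 10982139 to 10987873 (log2 fold changes of 0.70 to 1.85). All were lower in value in 5 groups, such as dpy-10 and dpy-2 on chromosome II from 6710149 to 6715971 (-1.23 and -1.52) and dpy-7 with col-174 on chromosome X from 7536467 to 7548365 (-1.44 and -1.70). In 7 groups directions were mixed, as for col-81 (0.97) and ram-2 (-1.57) on chromosome II from 11012397 to 11016881. An exon overlap with a gene on the opposite strand was annotated for 48 of the 177 genes, and with one on the same strand for 8. Neighbours are often close copies, and the handling of reads that fit more than one gene is not given in the sources used here.

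Exon number and coding length are given as a description, with no test. Of the 29 genes with a log2 fold change over 1, 22 (75.9%) had 1 or 2 exons, against 18 of 38 (47.4%) with one under -1 and 95 of all 177 (53.7%). Median coding length was 912 bases in the higher genes, 915 in the lower ones and 912 in all. The rule also takes in col-99, a transmembrane collagen with 18 exons and not a cuticle protein, which had 9.75, 6.80 and 16.4 CPM in the libraries labelled gtr-1 RNAi and 20.5, 21.8 and 23.8 CPM in EV (-1.0 ± 0.32; edgeR adjusted p = 0.129) and was picked after its values were seen.

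Genes that process and secrete collagens differed little in value. Of 18 genes, 10 were higher and 8 lower in value, with a median log2 fold change of 0.03, and edgeR called 0. DESeq2 called 3 lower and 0 higher, beside 7.58% and 6.66% of all genes. All 3 encode subunits of prolyl 4-hydroxylase, the enzyme that stabilises the collagen helix. pdi-2, the beta subunit, had 742, 718 and 779.6 CPM in the libraries labelled gtr-1 RNAi and 828, 868 and 945 CPM in EV (-0.24 ± 0.06; DESeq2 adjusted p = 0.00823), and the alpha subunit genes dpy-18 (-0.33 ± 0.09; DESeq2 adjusted p = 0.0148) and phy-2 (-0.30 ± 0.08; DESeq2 adjusted p = 0.0348) were lower by similar amounts. Another alpha subunit gene, phy-3, named here after its values were seen, was higher in value (0.43 ± 0.21; edgeR adjusted p = 0.212). The 4 collagens of basement membrane and touch neurons had a median of 0.02, 2 higher and 2 lower in value, and no call.

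Among 10 transcription factors of cuticle genes, 4 were higher and 6 lower in value, and edgeR called 0. elt-1, the GATA factor of epidermal fate, had 17.8, 18.03 and 24.9 CPM in the libraries labelled gtr-1 RNAi, against 31.3, 29.8 and 40.9 CPM in the EV libraries (-0.75 ± 0.18; DESeq2 adjusted p = 0.000336). nhr-23, the nuclear receptor of the moulting cycle, was higher by 0.19 ± 0.05 (DESeq2 adjusted p = 0.0455), and lin-29, the factor of the larval-to-adult switch, by 0.44 ± 0.13 (DESeq2 adjusted p = 0.0625). The remaining DESeq2 call, grh-1 of the Grainyhead family, was lower (-0.87 ± 0.26; adjusted p = 0.00281) and was picked after its values were seen.

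Moulting and precuticle genes, which shed the old cuticle and lay the temporary matrix under a new one, were mostly lower in value. Of 18 genes, 15 were lower and 3 higher in value, with a median of -1.19. edgeR gave 12, all lower, an unadjusted p under 0.05, beside 15.3% of all genes lower at that p, and called 0. DESeq2 called 8 lower and 0 higher, beside 7.58% and 6.66% of all genes. The summed level of the 18 genes was 368, 274 and 678 CPM in the libraries labelled gtr-1 RNAi, against 827, 980.2 and 1268 CPM in the EV libraries. The libraries stood in the order they had for the furrow collagens. lrp-1, a megalin-type receptor of the epidermis, lpr-1, a lipocalin of the precuticle, and qua-1, a hedgehog-related protein needed for moulting, had log2 fold changes of -0.48 ± 0.12, -1.02 ± 0.28 and -0.72 ± 0.21 (DESeq2 adjusted p of 0.00113, 0.0399 and 0.0159). Without gtr-1 RNAi 3 edgeR called 14 of the 18 lower, beside 15% of all genes.

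**Figure D5:**
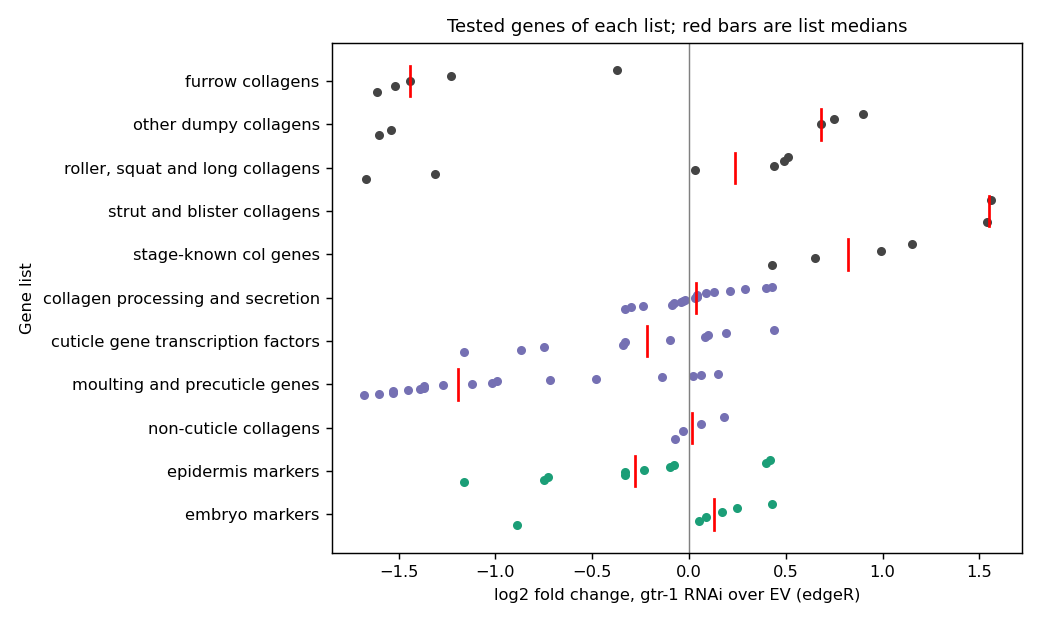
Log2 fold change (gtr-1 RNAi over EV, edgeR) of the tested genes of 11 lists, 1 point per gene with the list median as a red bar. Furrow collagens and moulting and precuticle genes have medians of -1.44 and -1.19, and processing genes and non-cuticle collagens lie near 0.

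Markers of the tissue that makes the cuticle and of early embryos inside the worms were read beside these values. No list was read for later embryos. The 10 epidermis markers summed to 617, 649 and 603 CPM in the libraries labelled gtr-1 RNAi and 618, 666 and 666 CPM in EV, so the groups overlapped, and the list's 3 factors elt-1, elt-3 and nhr-25 are also among the transcription factors above. vab-10, lin-26 and mup-4, named here after their values were seen, made up most of that sum, so it says little of markers at lower levels. Of the 10 epidermis markers 2 were higher and 8 lower in value, and DESeq2 called 2 in each direction. mup-4 and pah-1 were called higher (0.40 ± 0.13 and 0.42 ± 0.12), and elt-1 and che-14 lower (-0.75 ± 0.18 and -0.73 ± 0.19). Over all genes DESeq2 called 6.66% higher and 7.58% lower. The 10 embryo markers summed to 13.3, 11.6 and 12.6 CPM in the libraries labelled gtr-1 RNAi and 10.8, 10.8 and 10.9 CPM in EV, without overlap, with 6 tested, 5 of them higher and 1 lower in value. Of the 10, 7 had a mean under 1 CPM, so pes-10, tbx-37 and tbx-38 made up most of the sum. med-1 and hlh-25 were at 0 in 3 libraries each. Germline markers were higher in value in 5 of 5, with a median of 0.15 and 2 DESeq2 calls, and neuron markers lower in 5 of 5, with a median of -0.31. Intestine and body wall muscle markers had medians of 0.14 and 0.09. The 1 DESeq2 call among them was act-5, an intestinal actin gene, which had 168.9, 177 and 105 CPM in the libraries labelled gtr-1 RNAi and 86.1, 80.7 and 68.8 CPM in EV (log2 fold change 0.94 ± 0.23; DESeq2 adjusted p = 0.00279). The part of any of these in the collagen differences was not tested.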

How the data were processed

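Pools of whole worms gave stranded mRNA libraries, per the labels' protocols. Raw counts per gene in the deposited table are what the authors made with STAR and HTSeq on build WBcel235, per the submitters' processing notes; the sources used here give no versions, no strand setting and no treatment of reads with several matches. The authors' normalized counts, deposited as a signal scaled by 1 factor per library, were not tested. The raw columns headed GTOL, and the normalized ones headed GTROL, with a number were matched to the gtr-1 RNAi libraries by the letters GT and that number, since the titles read GTR1; what OL and ROL mean is not stated, and gtr-1 counts do not check the match.

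Gene structures came from the Ensembl annotation of WBcel235. Counts were tested with edgeR 4.0.16 (quasi-likelihood, robust, TMM, filterByExpr) in R 4.3.3, with Benjamini-Hochberg adjustment over 14683 genes at 0.05; DESeq2 1.42.0 and limma 3.58.1 were alternatives. CPM used TMM-adjusted library sizes, and TPM used exon length. The fits were first tested on simulated counts of 14683 genes. At an adjusted p of 0.05 edgeR made 10 false calls and DESeq2 42. Of 67 genes changed 2-fold, edgeR recovered 71.6% and DESeq2 76.1%. DESeq2's calls are therefore to be read with more caution than its threshold implies. Of the 43 collagen genes not tested, 4 had 0 counts (col-35, col-55, col-126 and col-185), and the highest mean was 0.279 CPM.

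Named were all genes with a mutant-derived name, listed col genes, the 6 highest in TPM, the 10 genes at either end of the log2 fold changes among those of at least 1 CPM without overlap, the 5 smallest p in each direction, and up to 3 genes per other list. Members and lists were chosen with earlier results of these data known.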

Additional observations from a re-analysis of the deposited data

How the results depend on the processing

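With all 6 libraries and no block, no collagen gene passed edgeR's threshold, also at an adjusted p of 0.1, and 0 did with any change of scaling, filter or robust estimation tried. Collagen genes called higher numbered 25 by DESeq2, 45 by limma-voom with sample quality weights, 22 by edgeR and 28 by DESeq2 with the replicate number as a block, and 0 to 26 with 1 library left out; called lower were 6, 43, 3, 18 and 0 to 42 in the same order. Over all genes the counts were 853, 2359, 467, 736 and 0 to 1555 higher, and 971, 3178, 492, 935 and 0 to 2236 lower. Same-numbered libraries deviated with correlations of 0.2401, -0.1068 and 0.1967, and differently numbered ones with -0.3261 to 0.2052. With 3 libraries per group, these values do not settle whether the numbers pair the libraries. Genes without overlap that were higher numbered 32 to 55 with 1 library left out, 55 of them without gtr-1 RNAi 2 and 49 without EV 1.

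Medians with 1 library left out ranged from -2.31 to -1.07 for furrow collagens, -0.34 to -0.20 for epidermis markers, 0.12 to 0.22 for embryo markers, 0.01 to 0.41 for all tested collagens, 0.33 to 1.08 for stage-known genes, -1.69 to -0.95 for moulting genes and -0.04 to 0.22 for muscle markers. With quality weights the medians were 0.82 for roller, squat and long collagens, -0.01 for processing genes, 0.27 for embryo markers and -0.49 for neuron markers; with plain library size they were -0.03 for processing genes and 0.09 for germline markers. Signs turned for dpy-5 (-0.01 without gtr-1 RNAi 1) and sqt-1 (-0.01 with limma-voom, -0.02 with library size, -0.43 and -0.44 without gtr-1 RNAi 1, -0.29 and -0.28 without EV 2, by edgeR and DESeq2). With 1 library left out, dpy-5 ranged from -0.01 to 1.47 and sqt-1 from -0.44 to 0.38. For the 49 named genes tested, 203 alternatives passed a threshold that edgeR did not, 916 kept direction and side, and 8 turned sign. The causes were not tested. Depth left 43 collagen genes untested, with means of at most 0.279 CPM.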
